A study of Mus musculus with 6 samples.

Results

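Solute carrier genes were taken as all genes whose symbol starts with Slc or Slco followed by a digit. Their peaks were all peaks for which such a gene was the nearest by transcription start site (TSS) in the deposited annotation. Of 134964 peaks in 6 peak lists, 2638 belonged to 274 such gene names, 8 of them Slco genes. RefSeq holds 389 protein-coding genes with such a symbol, and 273 of them had at least 1 peak. Membership went by symbol, so 26 of the peaks belonged to Slc22a13b-ps, Slc7a6os, Slc9a3r1 and Slc9a3r2, which are not carriers themselves. Peaks of all 3 factors were found at 64 of the 274, and 33 had a peak in every list, while 23 had a single peak over all 6 lists.

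The peaks came from chromatin immunoprecipitation sequencing (ChIP-seq) of C/EBPα, IRF8 and JUNB in mouse bone marrow-derived macrophages (BMDMs). Bone marrow of wild-type C57BL/6 mice, 8 to 12 weeks old, was grown for 6 days with L929 supernatant, a source of the growth factor M-CSF. Cells were crosslinked without IL-4 (control) or after 1 h with 20 ng/ml of it, by DSG and formaldehyde. Each factor was measured in 1 control and 1 IL-4 sample, so no test between conditions was possible. All 6 samples were wild-type and shared the culture; how many animals stood behind a sample, and which of 2 library kits was used for it, is not given in the sources used here. Intervals below are 95% intervals (Wilson for shares, order statistics for medians), and they cover counting over peaks only, not the spread between animals or libraries. Read depth is unknown, and the peak score, which the peak caller sets, has no stated unit and rises with depth.

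Near carriers, the control and IL-4 lists of C/EBPα held 487 and 481 peaks, those of IRF8 held 734 and 802, and those of JUNB held 86 and 48. The whole JUNB list shortened as well, from 3940 to 2325 peaks, and the whole IRF8 list grew from 37525 to 42076. Of the defining macrophage genes, 5 of 6 had a nearest peak, with Csf1r at 39 and Adgre1 at 28 over the 6 lists and Spi1 at 0. None of 3 T cell markers had a peak, whereas 3 of 3 B cell, 2 of 4 neutrophil, 1 of 2 dendritic cell and 1 of 2 erythroid markers did. A peak near a gene is not expression of that gene, and the files used here hold peaks only, with no RNA values.

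Solute carriers are membrane proteins that move amino acids, sugars, nucleosides, vitamins, metals and inorganic ions across the cell surface and the membranes of organelles. Macrophages use them to export iron, to take up cystine and arginine, and to empty the lysosome after engulfing other cells. C/EBPα and IRF8 help to set up the macrophage enhancer repertoire, JUNB is a subunit of AP-1, and IL-4 acts through the transcription factor STAT6.

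Chosen sequences are shown first. Each is the 200 bp around the centre of a peak, on the plus strand of the mm10 (GRCm38) reference, and the letters in capitals mark a motif match. The motifs were TGAGTCA or TGACTCA for AP-1, TTGCNNAA for C/EBP, GGAANNGAA for a composite of ETS and IRF sites, and TTC and GAA separated by 4 bases for a STAT6-type site. Both strands were searched and matches could overlap. A match is a description of the letters and not a measured site. Most windows shown hold a match, but windows of other strong carrier peaks held none of these motifs. Among those present in both conditions were C/EBPα near Slc25a33, IRF8 near Slc22a8 and Slc22a27, and JUNB near Slc24a3 and Slc37a2. Among the gained ones were C/EBPα near Slc39a12 and IRF8 near Slc25a12. Shares over all carrier peaks are given further below.

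The first pair comes from Slc7a2, whose promoter peak was absent in control and whose upstream peak had a higher score after IL-4. Of these windows, the upstream one held a STAT6-type match and the promoter one held none of the motifs.
Slc7a2 upstream C/EBPα peak, chr8:40851059-40851258: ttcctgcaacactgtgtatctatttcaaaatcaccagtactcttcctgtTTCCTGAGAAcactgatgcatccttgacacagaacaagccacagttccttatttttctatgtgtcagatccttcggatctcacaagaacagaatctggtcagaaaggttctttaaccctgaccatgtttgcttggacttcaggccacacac
Slc7a2 promoter C/EBPα peak, found after IL-4 only, chr8:40861618-40861817: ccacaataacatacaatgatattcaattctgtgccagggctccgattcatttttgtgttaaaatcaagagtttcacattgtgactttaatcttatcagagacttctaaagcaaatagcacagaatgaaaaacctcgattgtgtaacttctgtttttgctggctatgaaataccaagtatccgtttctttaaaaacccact

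Another pair of windows held STAT6-type matches under peaks found after IL-4 only, in introns of Slco2b1 (a transporter of organic anions) and Slc31a2 (a member of the copper transporter family).
Slco2b1 intron 7 C/EBPα peak, found after IL-4 only, chr7:99672140-99672339: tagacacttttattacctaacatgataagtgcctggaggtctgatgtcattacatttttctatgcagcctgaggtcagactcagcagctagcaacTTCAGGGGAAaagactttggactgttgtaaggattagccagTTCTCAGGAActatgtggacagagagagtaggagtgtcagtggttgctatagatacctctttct
Slc31a2 intron 1 IRF8 peak, found after IL-4 only, chr4:62287002-62287201: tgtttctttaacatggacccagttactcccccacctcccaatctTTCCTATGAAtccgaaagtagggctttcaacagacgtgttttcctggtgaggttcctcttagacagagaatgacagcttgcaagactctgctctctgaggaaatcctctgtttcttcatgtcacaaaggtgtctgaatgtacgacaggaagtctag

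A pair of strong peaks present in both conditions held a match to the motif of the factor measured, a C/EBP match at Slc45a4 and an ETS-IRF match in the region assigned to Slc45a1.
Slc45a4 intron 1 C/EBPα peak, chr15:73617700-73617899: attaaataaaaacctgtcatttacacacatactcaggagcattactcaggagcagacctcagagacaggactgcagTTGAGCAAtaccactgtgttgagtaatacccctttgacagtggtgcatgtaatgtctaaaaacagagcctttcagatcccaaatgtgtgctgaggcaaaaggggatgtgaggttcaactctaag
Slc45a1 IRF8 peak, in an intron of Rere, chr4:150566257-150566456: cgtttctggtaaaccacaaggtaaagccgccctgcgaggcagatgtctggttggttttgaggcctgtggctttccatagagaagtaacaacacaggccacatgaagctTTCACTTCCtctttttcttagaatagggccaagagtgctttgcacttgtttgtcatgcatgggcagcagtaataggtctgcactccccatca

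The last pair held AP-1 matches under JUNB peaks that were absent or lower after IL-4, in introns of Slc39a14 (a zinc and iron importer) and Slc2a9 (a urate transporter).
Slc39a14 intron 1 JUNB peak, found in control only, chr14:70333673-70333872: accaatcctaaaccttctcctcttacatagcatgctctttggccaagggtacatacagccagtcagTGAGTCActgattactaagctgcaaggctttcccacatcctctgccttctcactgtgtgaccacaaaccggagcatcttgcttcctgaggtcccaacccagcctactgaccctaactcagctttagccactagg
Slc2a9 intron 3 JUNB peak, chr5:38446357-38446556: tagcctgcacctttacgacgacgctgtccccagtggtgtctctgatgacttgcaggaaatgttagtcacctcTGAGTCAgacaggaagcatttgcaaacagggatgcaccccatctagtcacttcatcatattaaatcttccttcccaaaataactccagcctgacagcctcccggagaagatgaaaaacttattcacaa

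The comparison of control and IL-4 asks which carrier loci lose or acquire binding of the 3 factors within 1 h. A control peak without any overlapping IL-4 peak of the same factor (minimum 1 bp) was called lost, and an IL-4 peak without an overlapping control peak was called gained. C/EBPα lost 98 of 487 carrier peaks (20.1%, 16.8% to 23.9%) against 21.4% of all its peaks, and gained 93 of 481 (19.3%, 16.1% to 23.1%) against 22%. IRF8 lost 158 of 734 (21.5%, 18.7% to 24.6%) against 21.4%, and gained 231 of 802 (28.8%, 25.8% to 32.03%) against 30.4%. JUNB lost 54 of 86 (62.8%, 52.2% to 72.3%) against 64.2%, and gained 16 of 48 (33.3%, 21.7% to 47.5%) against 39.2%. In each of these 6 shares the value over all peaks lay within the interval of the carriers, so these counts say nothing particular to carriers. The JUNB loss also moves with the length of its lists: when the same number of highest-scoring peaks was taken from both, 54% of the carrier peaks in control had an IL-4 peak in place of 37.2%. A difference in depth or pulldown between the 2 JUNB samples cannot be told apart from the treatment.

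Peaks found in both conditions were compared by score, as the log2 ratio of the IL-4 over the control score in pairs matched to each other, and a pair that moved 2-fold or more was called raised or lowered. C/EBPα scores at carriers were raised in 43 of 387 pairs (11.1%, 8.35% to 14.6%) against 7.72% of all its pairs, and lowered in 22 (5.68%, 3.78% to 8.46%) against 6.56%. IRF8 scores were raised in 74 of 566 pairs (13.1%, 10.5% to 16.1%) against 11.3%, and lowered in 49 (8.66%, 6.61% to 11.3%) against 7.96%. JUNB scores were raised in 1 of 32 pairs (3.13%) against 2.99%, and lowered in 12 (37.5%, 22.9% to 54.7%) against 29.9%. The share of raised C/EBPα pairs was the only one of these whose interval left out the value of all pairs; it was not tested.

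**Figure D1:**
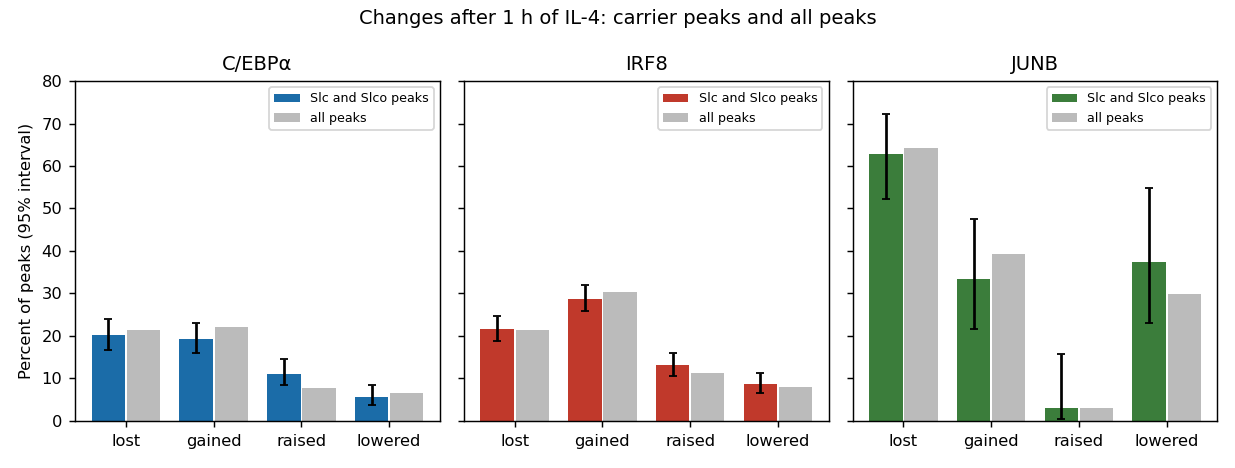
Percent of peaks lost, gained, raised 2-fold or more and lowered 2-fold or more after 1 h of IL-4 for each factor, for carrier peaks (coloured bars with 95% Wilson intervals over peaks) and for all peaks (grey bars); 1 sample per factor and condition. The widest gaps between coloured and grey bars are for JUNB peaks lowered (37.5% against 29.9%) and gained (33.3% against 39.2%), while raised C/EBPα peaks (11.1% against 7.72%) are the case where the interval leaves out the grey bar. The JUNB bar for lost peaks reaches 62.8% against 20.1% for C/EBPα.

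The highest-scoring peak gained at a carrier promoter was at Slc7a2, the cationic amino acid transporter that brings arginine into the cell (chromosome 8, 40862341 to 40922070). No C/EBPα or IRF8 peak lay at its promoter in control. After IL-4, a C/EBPα peak with a score of 37.4 lay at 40861483 to 40861954, centred -649 bp from the TSS, and an IRF8 peak with a score of 15.9 lay at 40861547 to 40861940, centred at -624 bp. Among the 93 carrier peaks gained by C/EBPα this one had the highest score, and among the 231 gained by IRF8 it ranked the fifth.

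Slc7a2 had a second bound region upstream, and there both factors were already present in control. The C/EBPα score went from 37.5 to 91.9 (log2 ratio 1.29) at -11208 bp, and the IRF8 score from 10.5 to 24.8 (log2 ratio 1.24) at -11279 bp. At both regions, for both factors, the IL-4 sample was thus the higher one, and JUNB had no peak near the gene in either condition. Over their full length the upstream peaks of either factor held 1 STAT6-type match each and no match to the other motifs, and none of the motifs was found over the full 472 bp of the gained promoter peak.

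Slc7a2 was 1 of 11 carrier regions that 2 factors gained together; no carrier region was gained by all 3. Of 92 carrier regions that C/EBPα gained, IRF8 gained 10 (10.9%, 6.01% to 18.9%), against 14.3% over all genes. The next by summed score was near Slc30a4, a zinc transporter that moves zinc out of the cytosol, and it lay at -10401 bp with gained scores of 16.5 for C/EBPα and 11.4 for IRF8. A neighbouring region of Slc30a4 was bound by all 3 factors in control. There the C/EBPα score went from 6.00 to 44.8 (log2 ratio 2.90), the highest ratio of C/EBPα at any carrier pair, and the IRF8 score from 76.7 to 184 (1.26). The JUNB score there was 8.82 in control and 8.90 after IL-4. Slc30a4 showed 4 gained peaks over the 3 factors and no lost peak.

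Slc17a5, which exports sialic acid from the lysosome, had the same one-sided pattern, with 5 gained peaks and none lost. In its intron 1, 1068 bp from the TSS, C/EBPα gained a peak of score 11.4 and IRF8 a peak of score 11.7. At its promoter C/EBPα gained a weak peak (4.02), the IRF8 score went from 19.5 to 26.3, and the JUNB score from 3.07 to 6.75. That last change (log2 ratio 1.14) was the only carrier pair of JUNB raised 2-fold or more.

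At Slc25a13, the mitochondrial aspartate-glutamate carrier citrin, C/EBPα (11) and JUNB (9.09) gained peaks in a region -3580 bp from the TSS. IRF8 was bound there before IL-4 and its score went from 27.3 to 67.1. The other regions gained by 2 factors lay near Slc22a16, Slc7a8, Slc16a9, Slc22a12, Slc30a1, Slc13a1 and Slc30a9, with summed scores from 8.24 to 20.6. At Slc22a16 the region was also bound by JUNB in both conditions (12.1 and 10.3).

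**Figure D2:**
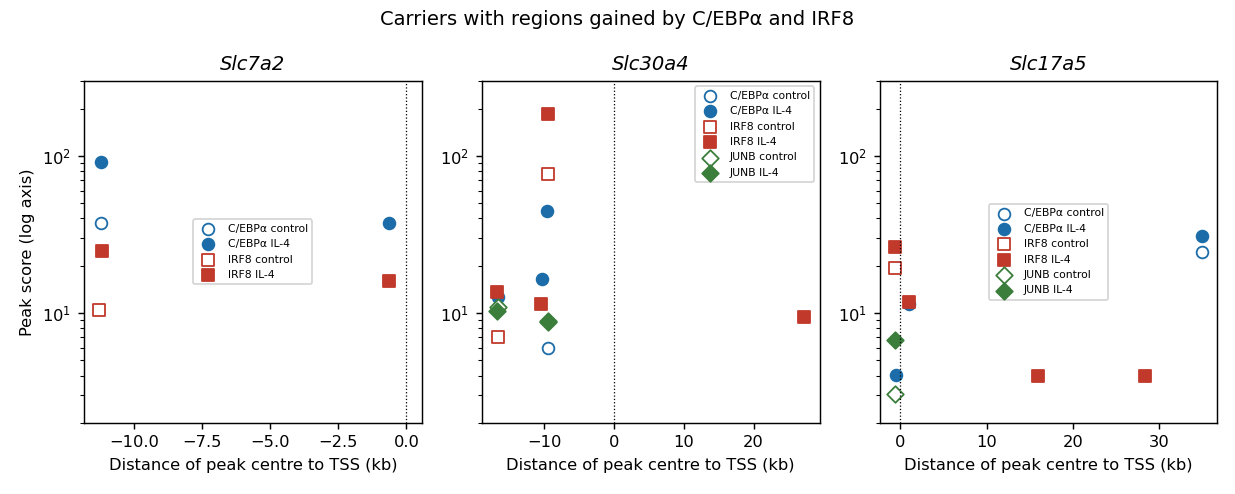
Peaks nearest to Slc7a2, Slc30a4 and Slc17a5, by the distance of the peak centre to the TSS in kb (x axis) and the peak score on a log axis (y axis); open symbols are control, filled symbols IL-4, with 1 sample each. At Slc7a2 the filled symbols near the TSS have no open partner, and at -11208 bp the C/EBPα score moved from 37.5 to 91.9.

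Loss by 2 factors together was seen in 10 carrier regions, again in none for all 3 factors. Of 94 carrier regions that C/EBPα lost, IRF8 lost 3 (3.19%, 1.09% to 8.97%) and JUNB lost 4 (4.26%, 1.67% to 10.4%), against 7.24% and 3.46% over all genes. The one with the highest summed score lay in intron 1 of Slc1a2, a glutamate transporter, where C/EBPα (12.3) and IRF8 (5.20) peaks were absent after IL-4. At -5576 bp from Slc41a2, a magnesium transporter, C/EBPα (9.48) and JUNB (7.63) were lost while the IRF8 score was 28.1 in control and 23.6 after IL-4. Others lay near Slc25a51 (within another gene), Slc4a4, Slc44a1, Slc7a11, Slc36a3, Slc2a1 and Slc24a5. In 5 of the 10 regions the third factor stayed bound or was gained.

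Over all pairs, the scores of C/EBPα and IRF8 at carriers centred near equality, and those of JUNB, as deposited, below it. The median log2 ratio was -0.03 (-0.11 to 0.05) for C/EBPα, 0.11 (0.04 to 0.15) for IRF8 and -0.53 (-1.12 to -0.08) for JUNB. Over all peaks the medians were -0.00, 0.08 and -0.54. With scores divided by the median of their whole list, the JUNB median at carriers was -0.19 (-0.78 to 0.26), an interval that spans 0, and with equally long lists it was -0.89 (-1.37 to -0.25). The carrier medians as deposited lay near those of their lists, and the spread among carrier pairs was wide, with an SD of 0.73, 0.80 and 0.83 over pairs.

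The highest IRF8 ratio at a carrier was in intron 1 of Slc23a2, a vitamin C transporter, where the score went from 7.43 to 71.6 (log2 ratio 3.27). At 85463 bp from the TSS of Slc1a2 it went from 10.4 to 80.2 (2.94). Slc13a1, a sulfate transporter, and Slc1a5, which carries glutamine, followed with 3.57 to 21.3 and 1.91 to 9.60. In the other direction, the IRF8 score in intron 4 of Slc38a6 went from 20.1 to 3.77 (-2.41) and that in intron 2 of Slc8a1 from 14.5 to 3.02 (-2.26). A pair of neighbouring IRF8 peaks upstream of Slc36a2, a proton-coupled amino acid transporter, went from 29.5 to 7.26 and from 13.6 to 3.56.

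For C/EBPα, the ratios next to that of Slc30a4 were in regions assigned to Slc45a1 (8.31 to 51.3, log2 ratio 2.63), Slc41a2 (15.6 to 89.5, 2.52) and Slc15a5 (13.3 to 57.8, 2.12). The Slc45a1 and Slc41a2 regions lay between genes, at -91301 and 116028 bp, and the Slc15a5 region in an intron. Slc31a2 also stood among them, with 12.5 going to 44.9 at -3040 bp. The lowest C/EBPα ratio was at the promoter of Slc13a3, a dicarboxylate transporter, from 17.8 to 4.23 (-2.07).

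JUNB kept 32 carrier peaks, of which 8 scored higher after IL-4 (25%, against 26.4% of all 1406 JUNB pairs). Slc2a9 had the strongest JUNB peak of any carrier in control, and its score went from 49.8 to 11.4 (log2 ratio -2.12). The next by control score was Slc24a3, a sodium-calcium-potassium exchanger, with 36.5 going to 16.8. It was followed by Slc37a2, a sugar phosphate exchanger of the endoplasmic reticulum, with 29.96 going to 8.71 (-1.78). By ratio, the kept peak of Slc7a11 came after that of Slc2a9, with -1.95. The 3 kept JUNB peaks at promoters, of Slc17a5, Slc15a3 and Slco2b1, all scored higher after IL-4, whereas 5 of 29 distal ones did. Over all genes 10 of 27 kept JUNB promoter peaks and 26.2% of the distal ones scored higher, so the carriers' promoter value rests on 3 peaks.

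**Figure D3:**
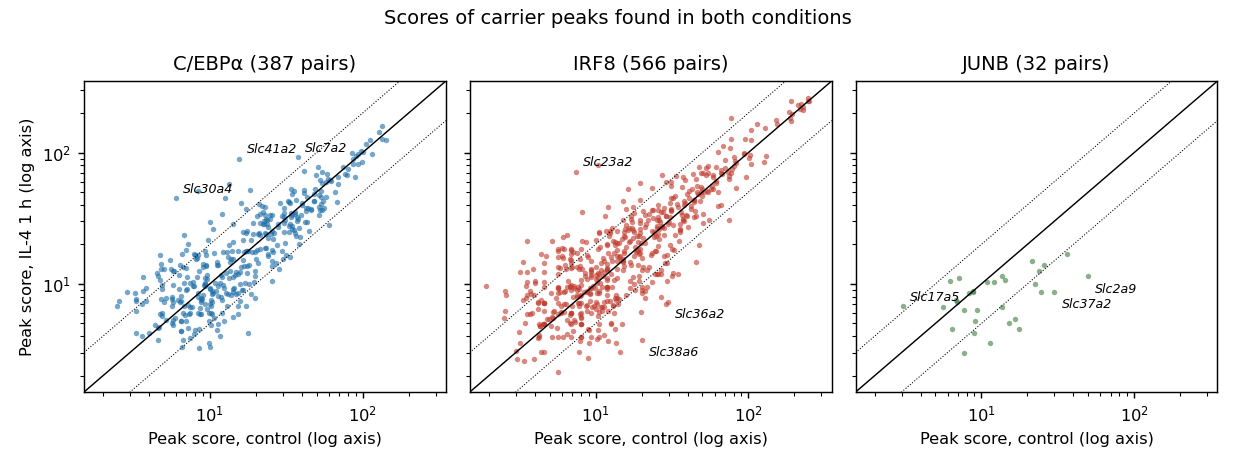
Scores of carrier peaks found in both conditions, control (x axis) against IL-4 (y axis), both on log axes, 1 panel per factor; the solid line is equality and the dotted lines are 2-fold. Of 32 JUNB pairs 8 lie above the line (25%, against 26.4% of JUNB pairs over all genes), and for IRF8 the Slc23a2 peak lies far above it (7.43 to 71.6).

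Overlapping peaks of all lists were merged into 1155 carrier regions, with a median of 3 per carrier. The 10 carriers with most regions held 202 of them (17.5%). Slc8a1, the sodium-calcium exchanger, had 28 regions and 69 peaks over the 6 lists, followed by Slc45a1 (27 regions, 67 peaks), Slc7a11 (22, 69), Slc41a2 (22, 48) and Slc9a9 (19, 41). Slc44a1 and Slc38a1 had 18 regions each, Slc39a10 had 17, Slc23a2 had 16 and Slc16a10 had 15. Carriers with longer genes tended to have more regions (Spearman's rho 0.32 across 274 carriers, a description).

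The gene with the nearest TSS was not always the gene a peak lay in. Of the 2638 peaks, 1279 (48.5%) lay in a feature of the carrier itself, 1082 (41.02%) between genes and 266 (10.1%) within another gene, and 285 (10.8%) lay beyond 100000 bp of the TSS. Slc45a1, a sugar transporter, is the clearest case: 53 of its 67 peaks lay in features of Rere and none in Slc45a1 itself. Of the peaks assigned to Slc46a2, 21 lay in Snx30. Slc8a1 in contrast had 56 of its 69 peaks within its own gene.

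Slc8a1 kept nearly all of its IRF8 peaks (21 in each condition, 2 lost and 3 gained). For C/EBPα it had 14 peaks in control and 11 after IL-4, with 4 lost and none gained, the most lost C/EBPα peaks of any carrier. Those 4 peaks scored between 5.22 and 9.82, below the median of 11.6 for carrier peaks of C/EBPα in control. Another C/EBPα peak of Slc8a1, in intron 1 and present in both conditions, went from 6.75 to 23.4 (log2 ratio 1.79).

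Slc7a11, which imports cystine in exchange for glutamate and feeds glutathione synthesis, lost more peaks of JUNB than of the other factors. The whole lists show the same order, with 64.2% of control peaks lost for JUNB, 21.4% for C/EBPα and 21.4% for IRF8. At Slc7a11, C/EBPα went from 13 to 11 peaks, with 2 lost and 0 gained. IRF8 had 19 peaks in each condition, with 2 lost and 2 gained. JUNB had 6 peaks in control and 1 after IL-4. The 5 lost peaks scored between 4.01 and 9.13, and the kept one, at -164345 bp, went from 17.6 to 4.56. All 5 places where JUNB was lost had an IRF8 peak in both conditions, and 4 had a C/EBPα peak in both. At the Slc7a11 promoter, where JUNB had no peak, the C/EBPα score went from 18.4 to 51.7 (log2 ratio 1.49) and the IRF8 score from 13.3 to 21.0 (0.66). A distal region at -172034 bp had IRF8 at 15.2 in control and 42.9 after IL-4.

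Slc44a1, a choline transporter, also went from 6 JUNB peaks to 1, with lost scores between 3.74 and 6.93 and a kept peak of 8.81 and 8.68. Slc23a2 had 4 JUNB peaks in control, with scores of 6.79 to 10.2, and none after IL-4. At all 4 of these Slc23a2 places C/EBPα and IRF8 peaks were present in both conditions; at the strongest, in intron 2 at 50389 bp from the TSS, C/EBPα scored 99.1 and 85.4. With equally long JUNB lists, the lost peaks numbered 2 at Slc7a11, 1 at Slc44a1 and 2 at Slc23a2.

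Over all 54 carrier regions that JUNB lost, C/EBPα was kept in 37 (68.5%, 55.3% to 79.3%) and IRF8 in 40 (74.1%, 61.1% to 83.9%), against 61.4% and 70.4% of all regions that JUNB lost. At the 16 carrier regions that JUNB gained, IRF8 was kept in 13 (81.2%, 56.99% to 93.4%), against 61.5% of all.

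IRF8 losses were most frequent at Slco3a1, an organic anion transporter, where 14 peaks in control became 8 after IL-4, with 7 lost and 1 gained. The lost peaks scored between 3.07 and 10.5, and the strongest IRF8 peak of Slco3a1, at -129388 bp, was 212 in control and 229.9 after IL-4. The 7 losses became 4 when peaks on repeats were left out, and also 4 when peaks beyond 100000 bp were. Slc9a9 and Slc39a10 lost 5 IRF8 peaks each, against 4 and 3 gained. Slc38a1, Slc16a10, Slc24a3 and Slc16a12 lost 4 each.

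IRF8 gains were led by Slc45a1 (8, of which 4 lay within another gene). Slc6a6, the taurine transporter, went from 7 to 11 IRF8 peaks with 5 gained, 2 of them at its promoter (11.1 and 6.31). Slc7a1, a second cationic amino acid transporter, went from 3 to 8 with 5 gained and none lost. With equally long IRF8 lists, the gains numbered 3 at Slc6a6 and 3 at Slc7a1. Slc25a24, a mitochondrial ATP-magnesium/phosphate carrier, gained 4 IRF8 and 3 C/EBPα peaks and lost none, and its IRF8 peak at 50128 bp had the highest score of all IRF8 gains at carriers (25.1). C/EBPα gains numbered 3 each at Slc41a2, Slc2a1 and Slc45a1 too.

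**Figure D4:**
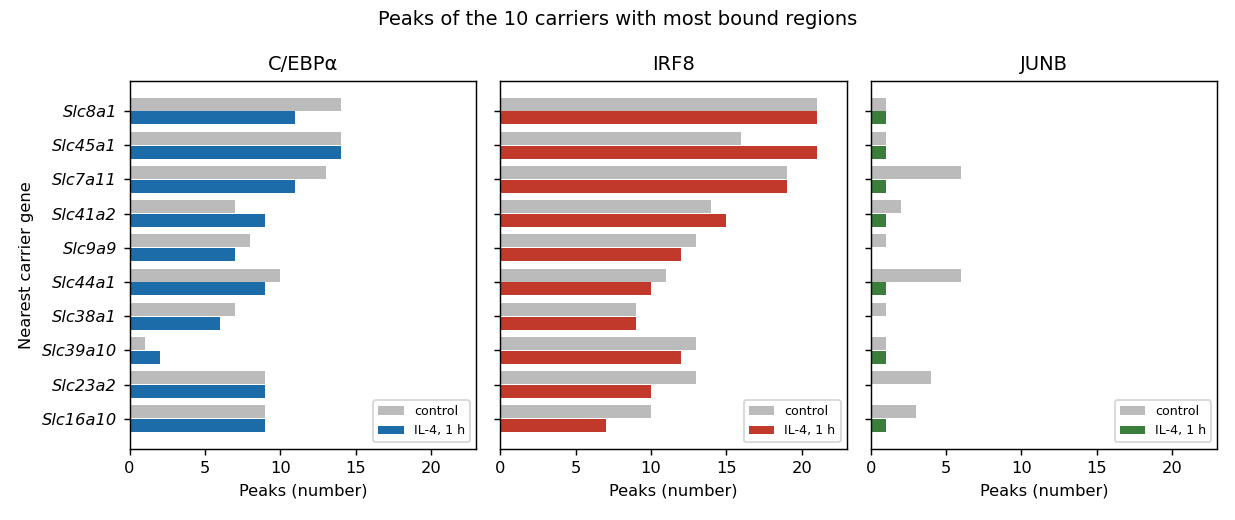
Number of peaks in control (grey) and after IL-4 (coloured) for the 10 carriers with most merged regions, 1 panel per factor and 1 sample per bar. JUNB peaks of Slc7a11 and Slc44a1 go from 6 to 1 and those of Slc23a2 from 4 to 0, while the C/EBPα bars of these carriers differ by at most 2. Over all genes, 64.2% of JUNB control peaks and 21.4% of C/EBPα control peaks were lost.

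The carriers were grouped into 8 classes by family number, so a class gives the usual cargo of a family and not of each member. Transporters of amino acids and peptides were the largest class, with 55 carriers and 572 peaks. JUNB had 22 peaks there in control and 7 after IL-4, with 15 lost (68.2%, against 64.2% of all JUNB control peaks). Of the 7 it gained 0, against 39.2% of all JUNB IL-4 peaks. IRF8 lost 34 (21.8%, against 21.4%) and gained 51 (29.5%, against 30.4%), and C/EBPα lost 23 (21.1%, against 21.4%) and gained 20 (19.05%, against 22%). The shares lost, and those gained by C/EBPα and IRF8, were near those of the whole lists. The class held Slc7a2, Slc7a11, Slc1a2 and Slc6a6 as described, and a JUNB peak of 11.7 that was lost in intron 5 of Slc36a2.

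Carriers of vitamins, fatty acids and choline had the fewest C/EBPα gains, 2 of 39 IL-4 peaks (5.13%, against 22% of all). Slc23a2 and Slc44a1 held 9 each of these 39 peaks, with 0 gained at either, so the share rests on few genes. JUNB went from 13 to 2 peaks in the class, with 11 lost (84.6%, against 64.2% of all). Slc23a2 and Slc44a1 account for 9 of these 11 lost JUNB peaks. For sugars, C/EBPα gained 12 of 39 peaks (30.8%, against 22%) and IRF8 25 of 79 (31.6%, against 30.4%). In that class the promoter of Slc2a9 gained C/EBPα (14.96), and Slc2a3, a glucose transporter, gained it too (8.82).

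Metal and heme carriers gained 17 of 60 C/EBPα peaks (28.3%, against 22% of all) and lost 11 of 54 (20.4%, against 21.4%). IRF8 lost 22 (25%, against 21.4%) and gained 25 (27.5%, against 30.4%). Beyond Slc30a4 and Slc31a2, the C/EBPα gain at Slc39a12, a zinc transporter, scored 29.3 and lay between genes at -51426 bp. JUNB lost its peaks at Slc39a14 (19.5), which was the strongest lost JUNB peak of any carrier, and at Slc39a1 (12.4). Mitochondrial carriers, the Slc25 family, lost 11 of 74 IRF8 peaks (14.9%, against 21.4%) and gained 24 of 87 (27.6%, against 30.4%).

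Among inorganic ion carriers C/EBPα gained 8 of 65 peaks (12.3%, against 22% of all). IRF8 gained 38 of 125 there, 30.4%, which is the share of its whole list. Organic ion and monocarboxylate carriers had 32 IRF8 peaks lost (24.1%, against 21.4%) and 33 gained (25.2%, against 30.4%), and nucleoside and nucleotide sugar carriers had 9 lost (16.98%) and 19 gained (31.1%). That last class had the largest share of promoter peaks, 12.1%, and vitamins, fatty acids and choline the smallest, 2.91%. None of the differences between classes was tested.

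**Figure D5:**
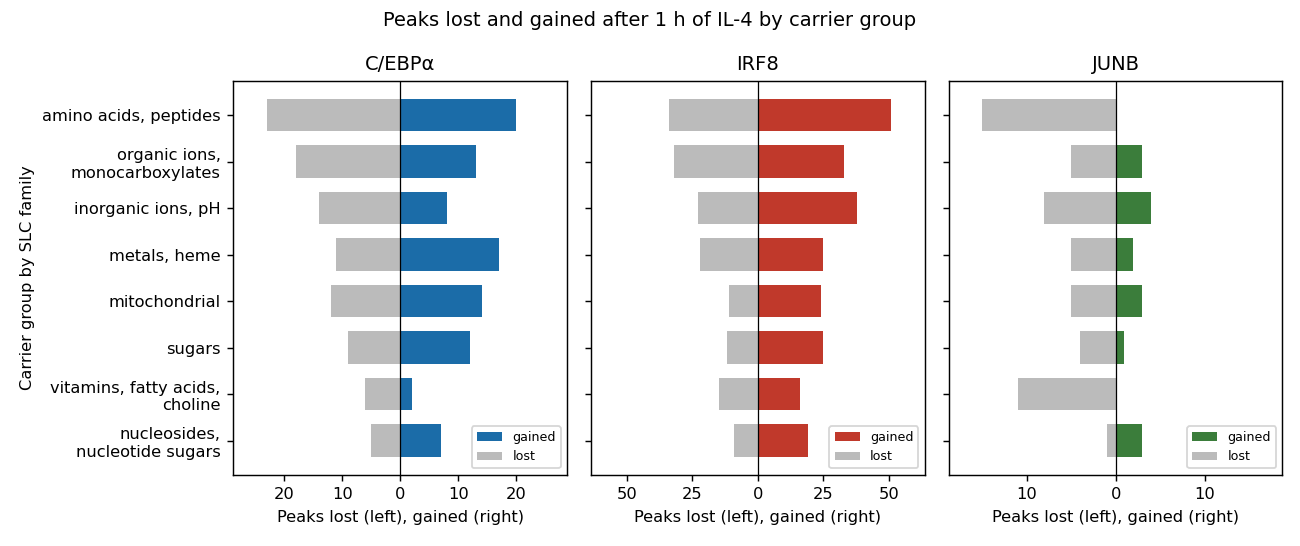
Carrier peaks lost (grey, left of 0) and gained (coloured, right of 0) after IL-4 in each of 8 classes of carriers, by factor; x axes differ between panels, and 1 sample stands behind each condition. JUNB loses 15 peaks at amino acid and peptide carriers and 11 at vitamin, fatty acid and choline carriers. It gains none in either, with only 7 and 2 peaks there after IL-4.

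A list of 13 carriers with a known part in macrophage biology was followed, and selected peaks of each are given here or above. Slc11a1, the phagosomal metal transporter NRAMP1, was bound at its promoter by C/EBPα (93.2 in control and 97.5 after IL-4) and by IRF8 (44.2 and 43.2), and its only JUNB peak (8.00), in an intron, was lost. Slc15a3, a lysosomal peptide and histidine transporter, was bound by all 3 factors at its promoter in both conditions. The control and IL-4 scores of C/EBPα there were 74.7 and 77.9, those of IRF8 were 114 and 164, and those of JUNB were 7.12 and 10.99. Its relative Slc15a4 went from 6 to 3 IRF8 peaks, with 2 lost, one of which (13.2) overlapped a C/EBPα peak in its first intron that was found in both conditions (23.96 and 16.95).

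Slc3a2, the heavy chain shared by several amino acid exchangers including that of Slc7a11, lost an IRF8 promoter peak of 15.6 at -283 bp. That peak, at 8714074 to 8714286, lay at a TSS inside the span of the gene (8706882 to 8723369). Another IRF8 peak, annotated to the promoter of Snhg1, lay 364 bp from a different annotated TSS of Slc3a2. Its score went from 4.36 to 16.8, and that of an IRF8 peak in an Slc3a2 intron from 19.5 to 43.8. For C/EBPα, Slc3a2 lost a peak (7.03) and gained one (3.78). Slc1a5 had no C/EBPα peak in control and gained one (10.6) in its first intron, where IRF8 went from 1.91 to 9.60. At the promoter of Slc25a1, the mitochondrial citrate carrier, IRF8 went from 17.5 to 38.3 (log2 ratio 1.13).

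Slc40a1, the iron exporter ferroportin, had no peak in its gene or promoter in any list; all its peaks lay between genes, 43963 to 65010 bp from its TSS apart from an IRF8 peak at -22401 bp that was lost. It lost 2 of 6 IRF8 and 1 of 4 C/EBPα peaks and gained none. Slc2a1, the glucose transporter GLUT1, gained 3 C/EBPα and 3 IRF8 peaks, none above a score of 5.78, and lost 2 C/EBPα peaks (7.31 and 7.15) and 1 JUNB peak (3.70). Its strongest peak, IRF8 in an intron, was 104 in control and 81.6 after IL-4. Slc38a9, which senses arginine in the lysosome, had an IRF8 peak of 218 and 214, gained another (7.58) and lost its only C/EBPα peak (4.79). Slc29a3, a lysosomal nucleoside transporter, kept all of its control peaks and gained a weak IRF8 peak (3.84). Slc16a3, the lactate exporter, lost a single weak IRF8 peak (4.61).

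For C/EBPα and IRF8, the promoter and distal peaks of the carriers behaved much like those of other genes. Promoter peaks were 30 of 487 (6.16%, 4.35% to 8.66%) and 38 of 481 (7.90%, 5.81% to 10.7%) for C/EBPα in control and IL-4, against 6.88% and 7.35% of all peaks. They were 49 of 734 (6.68%) and 59 of 802 (7.36%) for IRF8, against 7.25% and 9.16%. JUNB had 4 of 86 (4.65%, 1.82% to 11.4%) and 4 of 48 (8.33%, 3.29% to 19.6%), against 2.79% and 2.80% of all. The JUNB interval after IL-4 left out the share of all peaks, but it rests on 4 promoter peaks and was not tested. Most other carrier peaks lay in introns (47.5% to 49.6% for C/EBPα and IRF8) or between genes (40.1% to 41.4%). The IL-4 share of all IRF8 peaks, 9.16%, lay within the interval of the carriers (5.75% to 9.37%).

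C/EBPα gained 13 carrier promoter peaks and lost 5, and IRF8 gained 21 and lost 11. Of control promoter peaks of C/EBPα, 25 of 30 at carriers had an IL-4 peak (83.3%, 66.4% to 92.7%), against 77.6% of all. For IRF8 the share was 38 of 49 (77.6%, 64.1% to 87.0%), against 75.7%. The shares of IL-4 promoter peaks with a control peak are given below. After Slc7a2, the C/EBPα gains were at Slc2a9, at Slc35e1 (10.3), at Slc2a3, and at Slc20a1, a phosphate importer (7.93). After Slc7a2, the IRF8 gains at promoters were led by Slc6a6 (11.1) and by Slc25a38, a mitochondrial glycine carrier (9.12). After Slc3a2, the IRF8 losses were led by Slc25a12 (8.19) and Slc38a1 (7.11). JUNB gained a promoter peak at Slc39a13 (6.36) and lost one at Slc45a4 (4.60).

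Of IRF8 promoter peaks after IL-4, 38 of 59 at carriers had a control peak (64.4%, 51.7% to 75.4%), against 52% of all. For C/EBPα the share was 25 of 38 (65.8%, 49.9% to 78.8%), against 72.2%. Distal carrier peaks with a control peak made up 81.9% for C/EBPα and 71.7% for IRF8, against 78.5% and 71.3%. Promoter scores were not higher than distal ones at carriers, with medians after IL-4 of 8.42 (6.73 to 14.96) and 12.5 (11.1 to 13.97) for C/EBPα.

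Carrier peaks present in both conditions were the strong ones, as over all peaks. The median control score of kept C/EBPα peaks was 14.9 against 5.68 for lost ones, of IRF8 peaks 13.5 against 5.71, and of JUNB peaks 11.1 against 6.65. Over all peaks these medians were 14.83 and 5.62, 13.7 and 5.33, and 10.8 and 6.79. At scores of 20 and above, 152 of 152 C/EBPα, 207 of 209 IRF8 and 8 of 8 JUNB control peaks had an IL-4 peak, against 99.8%, 99.7% and 88.8% of all. Below a score of 5 the numbers were 31 of 65 (47.7%), 66 of 131 (50.4%) and 1 of 22 (4.55%), against 42.8%, 46.5% and 14.9% of all. The IRF8 peaks lost at 20 and above lay in intron 1 of Slc16a10, which carries aromatic amino acids (21.8), and near Slc35f6 (20.1). The strongest gained JUNB peak, in intron 1 of the prostaglandin transporter gene Slco2a1, scored 23 and was annotated as a repeat.

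Strong peaks common to both conditions marked several carriers. C/EBPα scored 142 and 125 in intron 1 of Slc45a4, 133 and 159 at Slc34a1, a phosphate transporter, and 127 and 143 at Slc36a1. IRF8 scored 248 and 247 near Slc22a8 and 245 and 259 near Slc22a27, both carriers of organic anions, and both peaks were annotated to repeats of the IAP family. It scored 245 and 248 in the Rere intron assigned to Slc45a1. In intron 3 of Slc25a12, a mitochondrial aspartate-glutamate carrier, IRF8 scored 226 and 222, and a further IRF8 peak (19.5) was gained in the same intron.

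For C/EBPα and IRF8, motif matches in 200 bp windows differed between kept and gained carrier peaks in the same direction as over all peaks. A C/EBP match lay in 164 of 388 kept C/EBPα peaks after IL-4 (42.3%, 37.5% to 47.2%) and in 16 of 93 gained ones (17.2%, 10.9% to 26.1%), against 36.04% and 23.8% over all peaks. An ETS-IRF match lay in 126 of 571 kept IRF8 peaks (22.1%, 18.9% to 25.6%) and in 20 of 231 gained ones (8.66%, 5.67% to 12.99%), against 22.9% and 13.3%. Gained carrier peaks of C/EBPα and IRF8 held the motif of their own factor at a lower share than kept ones, and kept peaks had the higher scores. JUNB did not show this order at carriers. After IL-4, 7 of 16 gained JUNB peaks held an AP-1 match (43.75%, 23.1% to 66.8%), against 32.5% of all gained. Of kept ones 11 of 32 did (34.4%, 20.4% to 51.7%), against 49.9% of all kept. The whole-list shares for kept C/EBPα and gained IRF8 peaks lay just outside the intervals of the carriers.

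For C/EBPα and IRF8 the STAT6-type match showed the opposite order. It lay in 14 of 93 C/EBPα peaks gained at carriers (15.1%, 9.18% to 23.7%), in 24 of 388 kept (6.19%, 4.19% to 9.04%) and in 1 of 98 lost (1.02%). Over all C/EBPα peaks the values were 20.0%, 7.45% and 3.41%. For IRF8 it lay in 31 of 231 gained (13.4%, 9.62% to 18.4%), 36 of 571 kept (6.30%, 4.59% to 8.60%) and 6 of 158 lost carrier peaks (3.797%), against 11.9%, 7.06% and 3.94%. The Slco2b1 window printed above held 2 such matches, and its C/EBPα peak (20.6) was among the 5 strongest gains. Slco2b1 also lost 3 C/EBPα peaks, and 2 of them, at 14.3 and, in the same intron, 14.01, were among the 5 strongest losses. At JUNB peaks of carriers the STAT6-type order was not seen, with 1 of 16 gained (6.25%, 1.11% to 28.3%) and 5 of 32 kept after IL-4 (15.6%, 6.86% to 31.8%), against 17.5% and 7.58% of all.

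AP-1 matches lay in 39 of 86 JUNB control peaks at carriers (45.3%, 35.3% to 55.8%), against 47.7% of all JUNB control peaks. They lay in 26 of the 54 lost (48.1%, 35.4% to 61.1%) and 13 of the 32 kept (40.6%, 25.5% to 57.7%), so the lost and kept JUNB peaks could not be told apart by this motif. In IRF8 peaks gained at carriers an AP-1 match was rare, 9 of 231 (3.90%, 2.06% to 7.24%), against 9% of all gained IRF8 peaks.

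Most carrier regions were bound by a single factor, 762 of 1155 (66.0%, 63.2% to 68.6%), and 560 of these by IRF8 only (48.5%, 45.6% to 51.4%). Over all genes the shares were 67.7% and 49.7%, both within the intervals of the carriers. All 3 factors bound 78 regions (6.75%, 5.44% to 8.35%), and 24 (2.08%, 1.40% to 3.07%) kept all 3 in both conditions, against 5.56% and 1.63% of 60847 regions of all genes. Of the 566 carrier regions in which IRF8 was kept, C/EBPα was kept in 227 (40.1%, 36.1% to 44.2%), against 37.2% of all. Of the 228 in which IRF8 was gained, C/EBPα was gained in 10 (4.39%, 2.40% to 7.89%), against 5.94%.

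ABC transporters, the other large class of membrane transporters, had far fewer peaks, 84 in control and 92 after IL-4 in the case of C/EBPα, 124 and 132 of IRF8, and 12 and 9 of JUNB. They also had far fewer bound genes. In control, C/EBPα peaks lay at 29 ABC genes against 184 carriers, and IRF8 peaks at 35 against 233. A control peak was kept in 90.5% (82.3% to 95.1%) of C/EBPα peaks at ABC genes and in 79.9% (76.1% to 83.2%) at carriers. For IRF8 the shares were 77.4% (69.3% to 83.9%) and 78.5% (75.4% to 81.3%). The intervals of the carriers and the ABC genes overlapped for both factors, for C/EBPα only narrowly, and overlap does not show that shares are equal. Over all peaks the share was 78.6% for C/EBPα, below the ABC interval, and 78.6% for IRF8, within it. Of C/EBPα peaks after IL-4 at ABC genes, 82.6% (73.6% to 89.0%) had a control peak, against 78.0% of all. The differences were not tested.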

How the data were processed

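C/EBPα, IRF8 and JUNB were profiled by ChIP-seq in control and IL-4-treated BMDMs, with 1 sample per factor and condition (6 samples). According to the submitters' processing notes, the tools were BWA 0.7.10, SAMtools 0.1.19, MACS2 2.0.10 and HOMER 4.2, with mm10 as genome build. The authors aligned the reads, called peaks in each sample separately, removed blacklisted regions, and assigned each peak to the gene with the nearest TSS. The deposited peak score is the peak score of MACS2 as the authors wrote it. Its unit is not stated, and read depth is unknown, so scores of separate samples may differ through depth alone.

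The members and the gene lists were chosen with earlier results of these data known. Peaks of a factor were called shared at an overlap of at least 1 bp, and pairs matched one to one were compared by score with a 2-fold limit. Shares have Wilson intervals and medians order-statistic intervals (95%). Peaks of all lists were merged into regions. The scripts (Python 3.11.15, pandas 2.3.3, numpy 2.4.6, scipy 1.17.1, pysam 0.24.0) were tested on simulated data, where 10 of 10 checks passed. Sequences came from the RefSeq GRCm38 assembly, whose chromosome coordinates are those of mm10, and 0 peaks ended past their chromosome. Left out of the 200 bp motif windows were 33 peaks on a sequence without a named chromosome and 1 window mostly of unknown bases.

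Carriers named were the 10 with most regions; per factor, the 5 with most gained and most lost peaks and those of the 5 strongest gained, lost and shared peaks; carriers whose promoter peak was gained or lost in 2 factors, and those of the 10 highest-scoring regions gained or lost by 2 factors; and 13 macrophage carriers. Carriers with extreme score ratios (Slc13a1, Slc13a3, Slc15a5), with single promoter changes (Slc2a3, Slc20a1, Slc25a38, Slc35e1), the remaining regions changed in 2 factors (Slc22a12, Slc30a1, Slc30a9, Slc4a4, Slc36a3, Slc24a5) and Slc46a2 were chosen after their values were seen. A result for 1 item is not reported here.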

Additional observations from a re-analysis of the deposited data

Results flagged for a closer look

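The number of carrier peaks after IL-4 over that in control differed between the factors, with C/EBPα at 0.988, IRF8 at 1.09 and JUNB at 0.558. At carrier peaks found in both conditions, the median log2 score ratio of C/EBPα was -0.03, that of IRF8 0.11 and that of JUNB -0.53. The factors were set beside each other because their changes under the same treatment went different ways. The difference was not tested, with 1 sample per factor and condition. The whole list of IRF8 also grew and that of JUNB also shortened, whereas that of C/EBPα went from 24486 to 24612 peaks.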

How the results depend on the processing

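No paired analysis was possible because each factor had 1 sample per condition and no test was made. Of 84 values recomputed under alternatives, 71 stayed within the interval of the reported value and 13 lay outside it. Most were percentages, which cannot change sign. A change of sign was counted only for the median score ratios of IRF8 and JUNB, whose reported intervals left out 0, and 0 of those changed sign. With peaks of score 10 or more, the share of IL-4 peaks with a control peak was 76.1% for C/EBPα (80.7% reported) and 79.1% for IRF8 (71.2%), and promoter peaks made up 5.80% of C/EBPα peaks after IL-4 (7.90%) and 0% of JUNB peaks in control (4.65%). With promoters taken as 2000 bp around the TSS, the promoter share in control and after IL-4 was 12.1% and 14.6% for C/EBPα and 13.2% and 15.1% for IRF8. With equally long lists, 77.4% of IRF8 peaks after IL-4 had a control peak, and 54% of JUNB control peaks had an IL-4 peak (37.2%). Without repeats, the IRF8 promoter share was 8.83% and 9.44%. With scores divided by the list median, the IRF8 median log2 ratio was 0.21. The cause was not tested.

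Of 30 gain and loss counts of single carriers, 22 moved beyond 1.5 times with a score of 10 or more, 9 without repeats, 7 with equally long lists, 5 within 100000 bp and 0 at an overlap of 50%. Without peaks in another gene, an alternative chosen after seeing the data, 6 moved, among them IRF8 gains at Slc45a1 (8 to 4) and C/EBPα gains there (3 to 0). Depth is unknown, and 1 sample per group leaves the spread between animals unmeasured.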
